A study of Mus musculus with 13 samples.

Results

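The 34 genes described here are interferon-stimulated genes of the mouse, transcribed when type I or type II interferon binds its receptor. They were chosen as a fixed list of symbols, with earlier results of these data known. The symbols were matched to the Ensembl identifiers of the gene table, and all 34 were found among its 53392 genes. The list holds 4 sensors of foreign nucleic acid (Ifih1, Ddx58, Dhx58, Zbp1), 3 transcription factors (Irf7, Irf9, Stat2) and 12 antiviral effectors (Rsad2, Cmpk2, Ifit1, Ifit2, Ifit3, Ifit3b, Oas1a, Oasl1, Oasl2, Mx1, Mx2, Bst2). It also holds 2 genes of the ubiquitin-like ISG15 system (Isg15, Usp18), 7 interferon-induced GTPases (Igtp, Irgm1, Irgm2, Ifi47, Gbp2, Gbp3, Gbp7) and 6 other induced genes (Ifi27, Ifi44, Xaf1, Parp14, Rtp4, Trim30a). All 34 passed the filter on low counts, and the lowest count of any of them in any mouse was 21.

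Interferons are secreted after cells sense foreign or misplaced nucleic acid, and they act through receptors coupled to the JAK kinases. Type I interferon acts through a complex with STAT2 and IRF9 that binds the interferon-stimulated response element (ISRE), while interferon gamma acts on genes with the gamma-activated sequence (GAS). In liver these programs are known from viral hepatitis, and hepatocytes, Kupffer cells and endothelial cells can all express them.

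RNA of whole liver was sequenced from 13 female mice aged 8 to 14 weeks, all of which received 28% of calories from ethanol for 4 weeks. Every mouse was homozygous for a Rosa26-loxP-stop-loxP-rtTA allele and for Albumin-Cre, which places the doxycycline-dependent activator in hepatocytes. ASAH+ mice also carried TRE-ASAH1, a doxycycline-responsive transgene for acid ceramidase, the enzyme that splits ceramide into sphingosine and a fatty acid. ASAH- mice were littermates without it. Doxycycline (Dox) was given at 200 mg/l. The groups were 4 ASAH- mice on the ethanol diet with Dox (ASAH- Etoh-Dox), 5 ASAH+ mice on the ethanol diet with Dox (ASAH+ Etoh-Dox) and 4 ASAH+ mice on the ethanol diet without Dox (ASAH+ Etoh). The transgene is driven in hepatocytes only, while the RNA came from all cells of the organ. In such RNA fewer cells of a type and less RNA per cell cannot be told apart. For ASAH+ mice the sample titles state Dox where the descriptions and induction labels state none, and the reverse, and the descriptions were used. The design text gives 4 mice per group where 1 group has 5.

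Total counts ranged from 17819486 to 35358711 per mouse, with a median of 24454043. Levels are given as CPM, the counts scaled to a common library total, with TMM factors. Asah1, read after the groups had been assigned, was at 49.4 ± 6.78 CPM (SD, n = 4) in ASAH- Etoh-Dox mice, at 12755 ± 2796 CPM (SD, n = 5) in ASAH+ Etoh-Dox mice and at 46.5 ± 1.70 CPM (SD, n = 4) in ASAH+ Etoh mice. Its log2 fold change was 8.01 ± 0.20 (SE) between ASAH+ and ASAH- mice on Dox, with an adjusted p of 1.24e-11 by the quasi-likelihood test of edgeR under Benjamini-Hochberg adjustment. Asah1 was thus at 9668 CPM or above in each of the 5 mice whose descriptions give Dox and the ASAH+ genotype, and at 55.0 CPM or below in the other 8. Reads of the transgene and of the mouse's own Asah1 were not counted apart.

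By group means, the level of the interferon-stimulated genes was lowest in ASAH+ mice without Dox and higher in both groups given Dox. By edgeR 0 of the 34 passed the test described below in any comparison. The mean log2 CPM of the 34 genes was 4.61, 4.38, 4.10 and 4.51 in the ASAH- Etoh-Dox mice, 4.57, 4.27, 4.25, 3.87 and 3.62 in the ASAH+ Etoh-Dox mice, and 3.73, 3.84, 3.56 and 3.86 in the ASAH+ Etoh mice. All 4 ASAH- Etoh-Dox mice were above all 4 ASAH+ Etoh mice on this mean, while the ASAH+ Etoh-Dox mice spread from the level of the highest mice to that of the lowest. The group means were 4.40 ± 0.22 (SD, n = 4), 4.12 ± 0.37 (SD, n = 5) and 3.75 ± 0.14 (SD, n = 4) in the same order. The 3 comparisons below share mice, since each group enters 2 of them, and their values are given side by side for each gene. A gene is said to have passed the test when its adjusted p was under 0.1 over the 14317 genes tested.

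ASAH+ against ASAH- mice, both given Dox, asks what the induced transgene changed in the alcohol-fed liver. Of the 34 genes, 31 were lower and 3 (Bst2, Gbp2 and Stat2) higher in ASAH+ mice. Ifi27, at -0.01, was above 0 by edgeR on the 2 groups, with no filter and with Asah1 left out of the totals, and Gbp2 was below 0 by limma-voom. This tally depended on single mice: 7 were above 0 without ASAH- Etoh-Dox replicate 4, and 1, 5, 8 and 10 without ASAH+ Etoh-Dox replicates 1, 3, 4 and 5 in turn. The log2 fold changes ran from -0.70 (Ifit1) to 0.15 (Bst2), with a median of -0.23 (a fold of 0.851) beside a median of -0.0023 over all genes tested. That of the 34 was -0.14 and -0.36 without ASAH- Etoh-Dox replicates 1 and 3, and -0.35, -0.15 and -0.12 without ASAH+ Etoh-Dox replicates 1, 4 and 5. By edgeR 0 of the 34 passed the test, where 2 genes in all did (0.0140%), and the count was also 0 by DESeq2, fitted on all 13 mice or on the 2 groups, and by limma-voom. At an unadjusted p under 0.05 there were 5 genes, all lower (Oasl1, Rsad2, Ifit1, Mx1 and Irf9), beside 1.57% of all genes in that direction. By the DESeq2 fits the count was 5 and 4, by limma-voom 4 and by edgeR on the 2 groups 2. It was also 2 with the replicate number of the titles as a block. The groups overlapped for each of the 34, where 0.447% of all genes had every ASAH+ mouse below every ASAH- mouse. The count of 5 depended on single mice: it was 1 without ASAH- Etoh-Dox replicate 1, 9 without ASAH- Etoh-Dox replicate 3, 3 without ASAH- Etoh-Dox replicate 4 and 13 without ASAH+ Etoh-Dox replicate 1. It was also 3 without ASAH+ Etoh-Dox replicate 3, and 2 without either ASAH+ Etoh-Dox replicate 4 or replicate 5. It was 3 without either ASAH+ Etoh replicate 3 or replicate 4, mice of neither group. They enter this comparison through the shared filter, scaling and estimate of spread, and 4 of the 34 were above 0 without either.

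ASAH+ mice with against ASAH+ mice without Dox asks the same of induction within the transgenic genotype, with Dox itself differing too. Each of the 34 was higher with Dox, by log2 fold changes from 0.05 (Mx2) to 0.75 (Zbp1), but 32 were without ASAH+ Etoh-Dox replicate 1, and 33 without ASAH+ Etoh-Dox replicate 4, ASAH+ Etoh replicate 2 or ASAH+ Etoh replicate 3. Their median was 0.43 (a fold of 1.34), or 0.25 without ASAH+ Etoh-Dox replicate 1, beside 0.01 over all genes tested, of which 53.0% were above 0. By edgeR 0 passed the test (0.0140% of all genes did), with a smallest adjusted p of 0.473 for Bst2 under Benjamini-Hochberg adjustment. At an unadjusted p under 0.05 there were 14, all higher, beside 4.05% of all genes in that direction. DESeq2 fitted on all 13 mice called Bst2 alone, with an adjusted p of 0.0299 that ranged up to 0.762 under the other settings and up to 0.862 with 1 mouse left out. That fit gave an adjusted p to 2 of the 34 and called 4.94% of the 1982 genes that had such a value. DESeq2 on the 2 groups and limma-voom called 0, and the counts at an unadjusted p under 0.05 were 15, 13 and 9 by these 3 fits. Bst2 was also the only gene of the 34 for which every mouse with Dox was above every mouse without, as were 1.09% of all genes. The count of 14 was 5 without ASAH+ Etoh-Dox replicate 1, 7 without ASAH+ Etoh-Dox replicate 3, 7 without ASAH+ Etoh replicate 1 and 6 without ASAH+ Etoh replicate 3.

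ASAH- mice with Dox against ASAH+ mice without it sets the 2 control groups against each other. Neither had the induced transgene, and they differed in both genotype and Dox, which cannot be told apart here. By the median these differences were the largest of the 3 comparisons. Each of the 34 was higher in ASAH- Etoh-Dox mice, by log2 fold changes from 0.04 (Stat2) to 1.20 (Rsad2), but 33 were without ASAH- Etoh-Dox replicate 1 or ASAH+ Etoh replicate 2. Their median was 0.65 (a fold of 1.57) beside 0.02 over all genes tested, of which 53.2% were above 0. For 19 of the 34, every ASAH- Etoh-Dox mouse was above every ASAH+ Etoh mouse, as were 3.09% of all genes. An unadjusted p under 0.05 was found for 25 of 34, all higher, beside 5.08% of all genes. By edgeR 0 of them passed the test (0.0140% of all genes did), and the smallest adjusted p was 0.389 with Benjamini-Hochberg adjustment. The limma-voom fit also called 0, with 24 at an unadjusted p under 0.05. DESeq2 fitted on all 13 mice called 11 of the 30 that had an adjusted p (Rsad2, Cmpk2, Ifit1, Ifit3, Ifit3b, Oasl1, Irf7, Isg15, Usp18, Xaf1 and Rtp4), all higher, beside 1.73% of 8625 genes. Fitted on these 2 groups only, DESeq2 called 21 of 33, all higher, beside 1.57% of 10699 genes. Its smallest adjusted p was 1.48e-05 for Ifit3, whose adjusted p ranged up to 0.684 under the other settings. The counts at an unadjusted p under 0.05 were 25 and 27 by the DESeq2 fits. Which genes passed thus differed between tools. The estimated fold change differed less, and that of Ifit3 lay between 1.08 and 1.11 on the log2 scale under all settings that kept every mouse.

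The plot of fold changes by gene places the 3 comparisons side by side, with the genes ordered by role. By role, the effectors and the ISG15 pair had the highest medians in the comparison of the control groups, 0.90 and 1.02. They had the lowest medians in that of ASAH+ with ASAH- mice on Dox, -0.41 and -0.51, although Bst2 among the effectors was at 0.15.

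**Figure D1:**
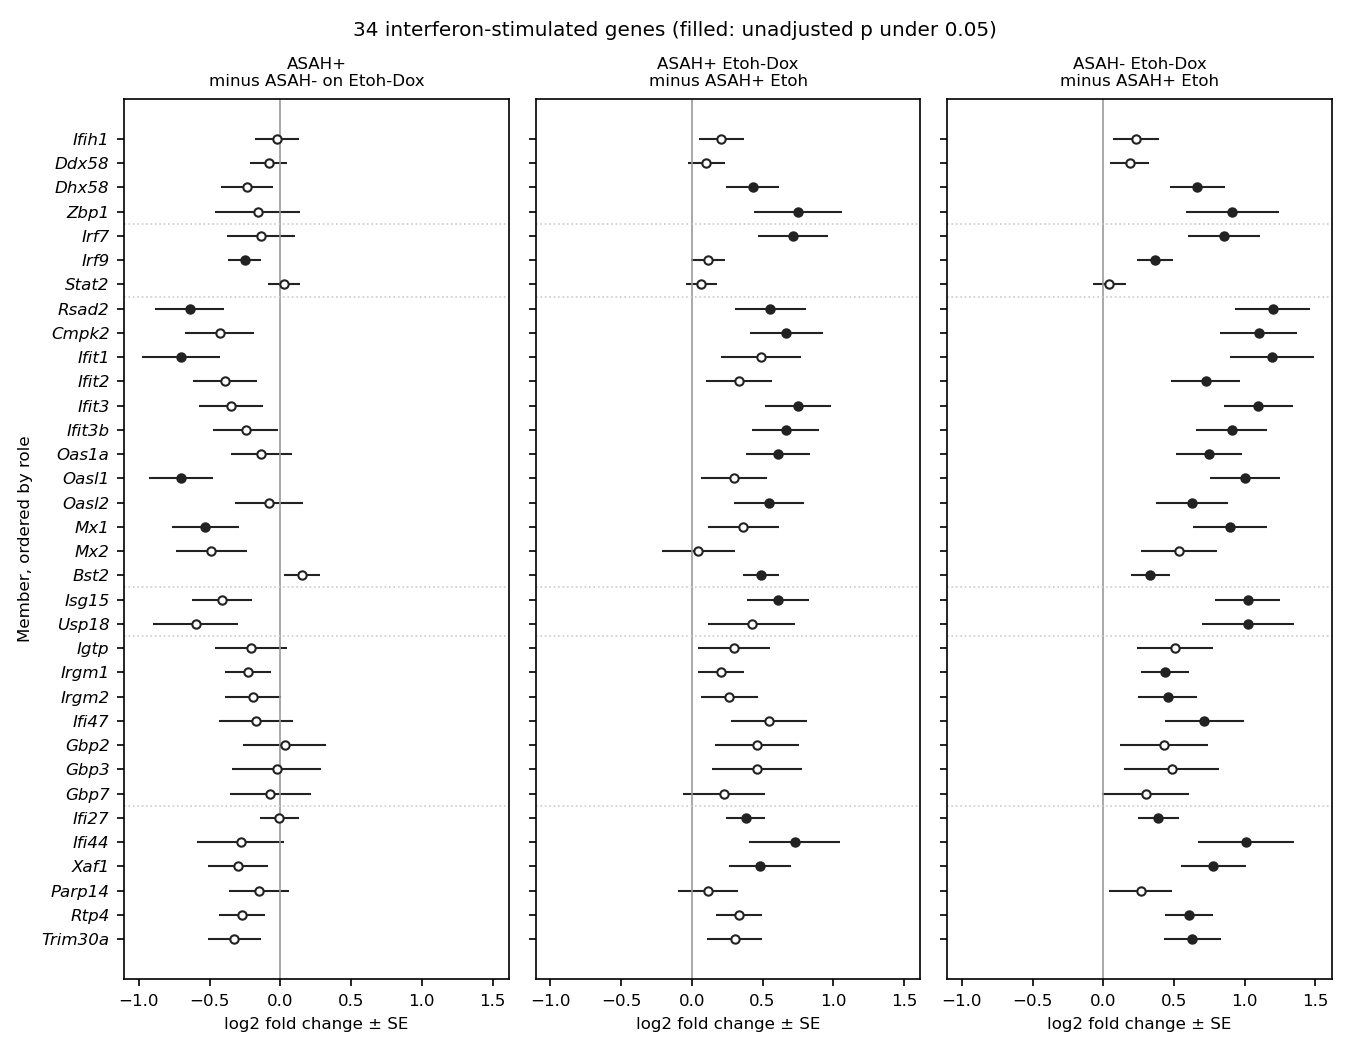
Log2 fold change (x axis) of each of 34 interferon-stimulated genes (y axis, ordered by role, dotted lines between roles) in 3 comparisons that share mice; points are edgeR estimates, bars the standard error, and filled points have an unadjusted p under 0.05. Filled points number 5, 14 and 25 from left to right, and all 34 points lie above 0 in the middle and right panels.

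Stretches of promoter are shown for 6 of the genes because members of the list moved together between mice, and because ISRE and GAS motifs are what interferon-activated factors are known to bind. RefSeq promoter sequences on GRCm38.p6, 300 bases from 250 before to 50 after each start, were matched for 26 of the 34 genes (30 windows); Zbp1, Rtp4, Mx1, Dhx58, Mx2, Usp18, Ifi27 and Parp14 had no entry. Both strands were searched for the ISRE core GAAANNGAAA and for GAS, TTCNNNGAA. The ISRE core was present in 18 of 30 windows (60%), beside 3.44% of all 32851 windows, which amounts to 17 of the 26 genes (65.4%) beside 3.99% of 27025 genes. GAS was present for 6 of the 26 genes (23.1%) beside 9.55% of all genes and 8.3% of all windows. Both motifs were present for 5 genes, and the only overlap of an ISRE core with a GAS match was in Bst2. Each line gives the 150 bases just before the start, 5′ to 3′ on the strand of the gene, with the bases of ISRE core matches on either strand in capitals. The positions are chr4:156200819-156200968 (minus strand) for Isg15, chr12:26456453-26456602 (minus) for Rsad2, chr19:34583379-34583528 (plus) for Ifit3, chr8:71537473-71537622 (minus) for Bst2, chr11:58199406-58199555 (plus) for Igtp and chr11:58214827-58214976 (plus) for Irgm2.
Isg15: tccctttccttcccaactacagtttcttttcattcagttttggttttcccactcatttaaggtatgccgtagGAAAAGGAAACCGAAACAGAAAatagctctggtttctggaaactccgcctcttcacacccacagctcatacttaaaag
Rsad2: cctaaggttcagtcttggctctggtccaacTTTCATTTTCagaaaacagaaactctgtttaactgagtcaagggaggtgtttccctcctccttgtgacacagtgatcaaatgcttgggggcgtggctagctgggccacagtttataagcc
Ifit3: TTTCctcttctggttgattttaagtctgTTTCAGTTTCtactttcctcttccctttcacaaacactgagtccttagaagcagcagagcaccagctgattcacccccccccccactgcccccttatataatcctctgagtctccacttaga
Bst2: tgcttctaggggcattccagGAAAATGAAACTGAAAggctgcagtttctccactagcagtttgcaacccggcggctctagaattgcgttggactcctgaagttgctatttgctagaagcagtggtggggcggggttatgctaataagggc
Igtp: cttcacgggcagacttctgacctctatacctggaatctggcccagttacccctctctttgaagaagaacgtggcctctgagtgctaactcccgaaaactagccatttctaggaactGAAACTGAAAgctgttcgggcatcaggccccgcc
Irgm2: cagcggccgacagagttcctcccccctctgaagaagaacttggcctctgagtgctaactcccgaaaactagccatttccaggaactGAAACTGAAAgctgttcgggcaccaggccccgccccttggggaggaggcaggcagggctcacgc

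In Isg15, 3 overlapping matches run from -78 to -57 before the start, and Rsad2 has 1 match from -120 to -111. Ifit3 has 2, of which the farther begins at -156, upstream of the bases shown, so that only its end appears. The promoter windows of Igtp and Irgm2 share an unbroken run of 61 bases, and those of Ifit3 and Ifit3b a run of 169 bases. Matches are a description of the letters in these windows, and only exact matches were counted. A gene without a match is thus not shown to lack an ISRE. In the comparison of the control groups the median log2 fold change was 0.49 for the 17 genes with an ISRE core in a window and 0.78 for the 9 without, of which 10 and 9 had an unadjusted p under 0.05.

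Many of the genes also lie beside each other: 17 of the 34 fall in 7 clusters with gaps of at most 500 kb between neighbours. On chromosome 19, Ifit2, Ifit3, Ifit3b and Ifit1 lie within 99.3 kb, and on chromosome 3, Gbp7, Gbp3 and Gbp2 lie within 107.7 kb. Rsad2 and Cmpk2 on chromosome 12 are transcribed away from each other from starts 12.752 kb apart. The other pairs are Oasl2 with Oasl1 on chromosome 5, Igtp with Irgm2 and Irgm1 with Ifi47 on chromosome 11, and Mx1 with Mx2 on chromosome 16. Some neighbours share sequence, which limits how reads can be divided between them: of the 1715 words of 31 bases in Ifit3 transcripts, 1060 also occur in Ifit3b, and 1275 of the 1855 words of Oas1a also occur in Oas1g. With the counts of Ifit3 and Ifit3b summed, the log2 fold changes were -0.33 ± 0.22, 0.73 ± 0.23 and 1.05 ± 0.24 (SE) in the 3 comparisons in the order above. Those of Oas1a and Oas1g summed were -0.10 ± 0.23, 0.62 ± 0.24 and 0.72 ± 0.25 (SE).

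Among the sensors, which detect viral RNA or nucleic acid in unusual forms, Zbp1 and Dhx58 differed most between the control groups and Ddx58 least. Zbp1, a sensor of left-handed nucleic acid that can trigger necroptosis, was at 13.8, 12.7, 8.53 and 17.4 CPM in ASAH- Etoh-Dox mice, at 18.0, 11.3, 15.0, 7.90 and 6.29 CPM in ASAH+ Etoh-Dox mice and at 7.28, 9.64, 5.52 and 5.32 CPM in ASAH+ Etoh mice. The highest mice of both groups with Dox were well above all mice without it, but the groups overlapped in each comparison. Its log2 fold change was -0.16 ± 0.30 (SE) for ASAH+ against ASAH- on Dox, 0.75 ± 0.31 for ASAH+ with against without Dox and 0.91 ± 0.33 between the control groups. The first ran from -0.37 without ASAH+ Etoh-Dox replicate 1 to 0.01 without ASAH- Etoh-Dox replicate 4. Dhx58, a regulator of the other RNA sensors, differed between the control groups by 0.67 ± 0.20 (SE, log2) without overlap. Ifih1 (MDA5) and Ddx58 (RIG-I), the cytosolic RNA sensors upstream of interferon, differed there by 0.23 ± 0.16 and 0.19 ± 0.14 (SE, log2), with overlap.

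The 3 transcription factors differed among themselves. Irf7, which drives transcription of type I interferon genes and is itself induced by interferon, was at 50.8, 38.5, 52.4 and 54.5 CPM in ASAH- Etoh-Dox mice, at 76.0, 46.8, 33.6, 36.8 and 29.1 CPM in ASAH+ Etoh-Dox mice and at 28.9, 24.5, 23.1 and 32.0 CPM in ASAH+ Etoh mice. Every ASAH- Etoh-Dox mouse was above every ASAH+ Etoh mouse, and ASAH+ Etoh-Dox replicate 1 was the highest of the 13. Log2 fold changes of Irf7 were -0.14 ± 0.24, 0.72 ± 0.24 and 0.85 ± 0.26 (SE) in the order above. Without ASAH+ Etoh-Dox replicate 1 the first was -0.42 and the middle 0.42, and without replicate 5 of that group the first was -0.01. Irf9, the DNA-binding subunit of the complex that type I interferon forms, was lower by a log2 fold change of -0.25 ± 0.12 (SE) in ASAH+ than in ASAH- mice on Dox, and higher by 0.37 ± 0.13 in ASAH- Etoh-Dox than in ASAH+ Etoh mice. Stat2, its partner, had the smallest difference of the 34 between the control groups, a log2 fold change of 0.04 ± 0.12 (SE), and the smallest spread between mice of a group.

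The 12 antiviral effectors gave 4 of the 5 genes with an unadjusted p under 0.05 in the comparison of ASAH+ with ASAH- mice on Dox, 7 of the 14 with against without Dox and 11 of the 25 between the control groups. Rsad2 encodes viperin, an enzyme that makes a chain-terminating nucleotide, and was at 35.8, 21.7, 19.5 and 17.6 CPM in ASAH- Etoh-Dox mice, at 17.1, 10.6, 21.3, 15.8 and 10.8 CPM in ASAH+ Etoh-Dox mice and at 9.12, 9.85, 8.95 and 13.4 CPM in ASAH+ Etoh mice. ASAH- Etoh-Dox replicate 1 was the highest by a wide gap, and the ASAH+ Etoh-Dox mice lay between the other groups and overlapped each. Rsad2 had log2 fold changes of -0.64 ± 0.24, 0.55 ± 0.25 and 1.20 ± 0.26 (SE), and without ASAH- Etoh-Dox replicate 1 the first was -0.36 and the last 0.91. Cmpk2, a nucleotide kinase of mitochondria that supplies the substrate of viperin, had log2 fold changes of -0.43 ± 0.25, 0.67 ± 0.26 and 1.10 ± 0.27 (SE).

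Ifit1, which binds RNA lacking the methylation of host caps, was at 34.6, 26.7, 14.4 and 33.2 CPM in ASAH- Etoh-Dox mice, at 25.2, 17.4, 18.4, 12.9 and 9.37 CPM in ASAH+ Etoh-Dox mice and at 10.9, 13.8, 10.7 and 12.2 CPM in ASAH+ Etoh mice. ASAH- Etoh-Dox replicate 3 lay apart from the other 3 of its group, just above the highest ASAH+ Etoh mouse. For Ifit1 the log2 fold changes were -0.70 ± 0.28, 0.49 ± 0.29 and 1.19 ± 0.30 (SE), the middle one 0.28 without ASAH+ Etoh-Dox replicate 1. Ifit3, of the same family of RNA-binding proteins, was at 37.0, 36.1, 26.0 and 40.0 CPM in ASAH- Etoh-Dox mice, at 39.7, 33.1, 26.2, 21.1 and 16.3 CPM in ASAH+ Etoh-Dox mice and at 16.7, 20.3, 13.9 and 14.1 CPM in ASAH+ Etoh mice. The control groups did not overlap, and ASAH+ Etoh-Dox replicate 5 alone of its group was within the range of the mice without Dox. Its log2 fold changes were -0.35 ± 0.23, 0.75 ± 0.23 and 1.10 ± 0.24 (SE), and the first was -0.20 without that mouse and -0.52 without replicate 1 of the group. For Ifit2 and Ifit3b the control groups did not overlap either, with log2 fold changes of 0.72 ± 0.24 and 0.91 ± 0.25 (SE).

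Oasl1, an oligoadenylate synthetase-like protein known to restrain translation of Irf7, was at 18.3, 14.3, 10.7 and 12.6 CPM in ASAH- Etoh-Dox mice, at 11.6, 7.78, 11.6, 6.66 and 4.95 CPM in ASAH+ Etoh-Dox mice and at 6.87, 7.93, 6.40 and 6.59 CPM in ASAH+ Etoh mice. It had the smallest unadjusted p of the 34 between ASAH+ and ASAH- mice on Dox, 0.00781, where 2 of the 5 ASAH+ mice lay above the lowest ASAH- mouse. Oasl1 had log2 fold changes of -0.70 ± 0.23, 0.30 ± 0.23 and 1.00 ± 0.25 (SE), and the middle value was 0.15 without either ASAH+ Etoh-Dox replicate 1 or replicate 3. The adjusted p of the -0.70 was 1.00 by edgeR with Benjamini-Hochberg adjustment. Oas1a and Oasl2, of the same family, differed less between ASAH+ and ASAH- mice on Dox, by log2 fold changes of -0.14 ± 0.22 and -0.08 ± 0.24 (SE), and by 0.75 ± 0.23 and 0.63 ± 0.26 between the control groups. Mx1 and Mx2 belong to a family of dynamin-like GTPases that can block virus replication, and the gene annotation labels Mx2 a polymorphic pseudogene. Whether either made a working protein in these mice was not tested. Mx1 and Mx2 had log2 fold changes of -0.53 ± 0.24 and -0.49 ± 0.25 (SE) on Dox and of 0.89 ± 0.26 and 0.54 ± 0.27 between the control groups. Mx1 was the least abundant of the 34 per length of exon.

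Bst2, or tetherin, which holds budding virions at the cell surface, was the most abundant of the 34 per length, at 92.4 CPM per kb, and its pattern over the groups differed from that of the other effectors. It was at 84.2, 91.9, 86.6 and 77.9 CPM in ASAH- Etoh-Dox mice, at 129, 78.9, 79.7, 93.3 and 92.4 CPM in ASAH+ Etoh-Dox mice and at 66.7, 61.5, 68.2 and 73.8 CPM in ASAH+ Etoh mice. All 9 mice with Dox were above all 4 without, whatever their genotype, and ASAH+ Etoh-Dox replicate 1 stood above the rest. The log2 fold changes were 0.15 ± 0.13, 0.49 ± 0.13 and 0.33 ± 0.13 (SE), and without ASAH+ Etoh-Dox replicate 1 the first was 0.02 and the middle value 0.34.

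Isg15, the ubiquitin-like protein that is joined to newly made proteins, was at 18.4, 12.2, 10.2 and 12.9 CPM in ASAH- Etoh-Dox mice, at 14.1, 9.91, 10.2, 8.54 and 7.50 CPM in ASAH+ Etoh-Dox mice and at 4.93, 7.24, 5.61 and 8.67 CPM in ASAH+ Etoh mice. The control groups did not overlap, and 3 of the 5 ASAH+ Etoh-Dox mice were above all mice without Dox. Log2 fold changes of Isg15 were -0.41 ± 0.21, 0.61 ± 0.22 and 1.02 ± 0.23 (SE), the first of them -0.22 without ASAH- Etoh-Dox replicate 1. Usp18, which removes ISG15 and dampens signalling at the type I receptor, had log2 fold changes of -0.60 ± 0.30, 0.42 ± 0.31 and 1.02 ± 0.32 (SE), with no overlap between the control groups.

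The 7 GTPases, which act on vacuoles that hold pathogens and respond chiefly to interferon gamma, differed less than the effectors. By edgeR none of them had an unadjusted p under 0.05 in either comparison with the ASAH+ Etoh-Dox group. Between the control groups 3 of 7 did (Irgm1, Irgm2 and Ifi47), with a median log2 fold change of 0.46. The test was passed there by 0 of 7 by edgeR or limma-voom, and by Ifi47 alone by DESeq2 on the 2 control groups. Igtp was at 72.0, 68.3, 37.5 and 74.8 CPM in ASAH- Etoh-Dox mice, at 64.1, 66.4, 68.5, 36.6 and 38.0 CPM in ASAH+ Etoh-Dox mice and at 38.4, 56.1, 32.7 and 50.7 CPM in ASAH+ Etoh mice. Both groups with Dox held mice at either end, 3 high and 1 low in ASAH- and 3 high and 2 low in ASAH+ mice, and all groups overlapped. The log2 fold changes of Igtp were -0.21 ± 0.25, 0.30 ± 0.26 and 0.51 ± 0.27 (SE). The first ran from -0.39 without ASAH- Etoh-Dox replicate 3 to -0.09 without ASAH+ Etoh-Dox replicate 4, and the middle one was 0.17 without ASAH+ Etoh replicate 3. Gbp3, a guanylate-binding protein, was at 22.5, 25.0, 18.0 and 31.6 CPM in ASAH- Etoh-Dox mice, at 41.1, 29.8, 20.1, 14.1 and 13.8 CPM in ASAH+ Etoh-Dox mice and at 18.0, 16.7, 12.0 and 22.8 CPM in ASAH+ Etoh mice. The ASAH+ Etoh-Dox mice thus spanned the whole range from near the lowest to the highest of the 13. Gbp3 had log2 fold changes of -0.03 ± 0.31, 0.46 ± 0.32 and 0.49 ± 0.34 (SE), and the first was -0.32 and the middle 0.16 without ASAH+ Etoh-Dox replicate 1. Without ASAH- Etoh-Dox replicate 4 the first was 0.13.

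Among the 6 other induced genes, Ifi27, a small membrane protein linked to mitochondria, was next to Bst2 in abundance per length, at 37.0 CPM per kb. It was at 59.8, 54.9, 60.1 and 60.1 CPM in ASAH- Etoh-Dox mice, at 83.8, 49.5, 53.1, 49.1 and 56.3 CPM in ASAH+ Etoh-Dox mice and at 43.0, 49.5, 41.0 and 45.8 CPM in ASAH+ Etoh mice. The ASAH- Etoh-Dox mice were close together and all above the ASAH+ Etoh mice, and ASAH+ Etoh-Dox replicate 1 was far above the other 12. Ifi27 had log2 fold changes of -0.01 ± 0.14, 0.38 ± 0.14 and 0.39 ± 0.14 (SE), and without ASAH+ Etoh-Dox replicate 1 the first was -0.17 and the middle 0.20. The first was 0.05 without replicate 4 of that group. Ifi44 was at 11.5, 6.71, 7.22 and 13.7 CPM in ASAH- Etoh-Dox mice, at 13.3, 9.26, 7.88, 5.09 and 4.51 CPM in ASAH+ Etoh-Dox mice and at 4.84, 5.41, 3.39 and 5.84 CPM in ASAH+ Etoh mice. All 4 ASAH- Etoh-Dox mice and the 3 highest ASAH+ Etoh-Dox mice were above the mice without Dox. Its log2 fold changes were -0.28 ± 0.31, 0.73 ± 0.32 and 1.01 ± 0.34 (SE). Without ASAH+ Etoh-Dox replicate 1 the first was -0.54 and the middle 0.45, and without ASAH- Etoh-Dox replicate 4 the first was -0.07. Xaf1, Rtp4 and Trim30a likewise did not overlap between the control groups, at 0.78 ± 0.23, 0.61 ± 0.17 and 0.63 ± 0.20 (SE, log2 fold change), whereas Parp14, an ADP-ribosyltransferase, overlapped at 0.27 ± 0.22.

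The plot of levels by mouse shows the 12 genes given in full, and the width of the ASAH+ Etoh-Dox group is visible in most of them.

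**Figure D2:**
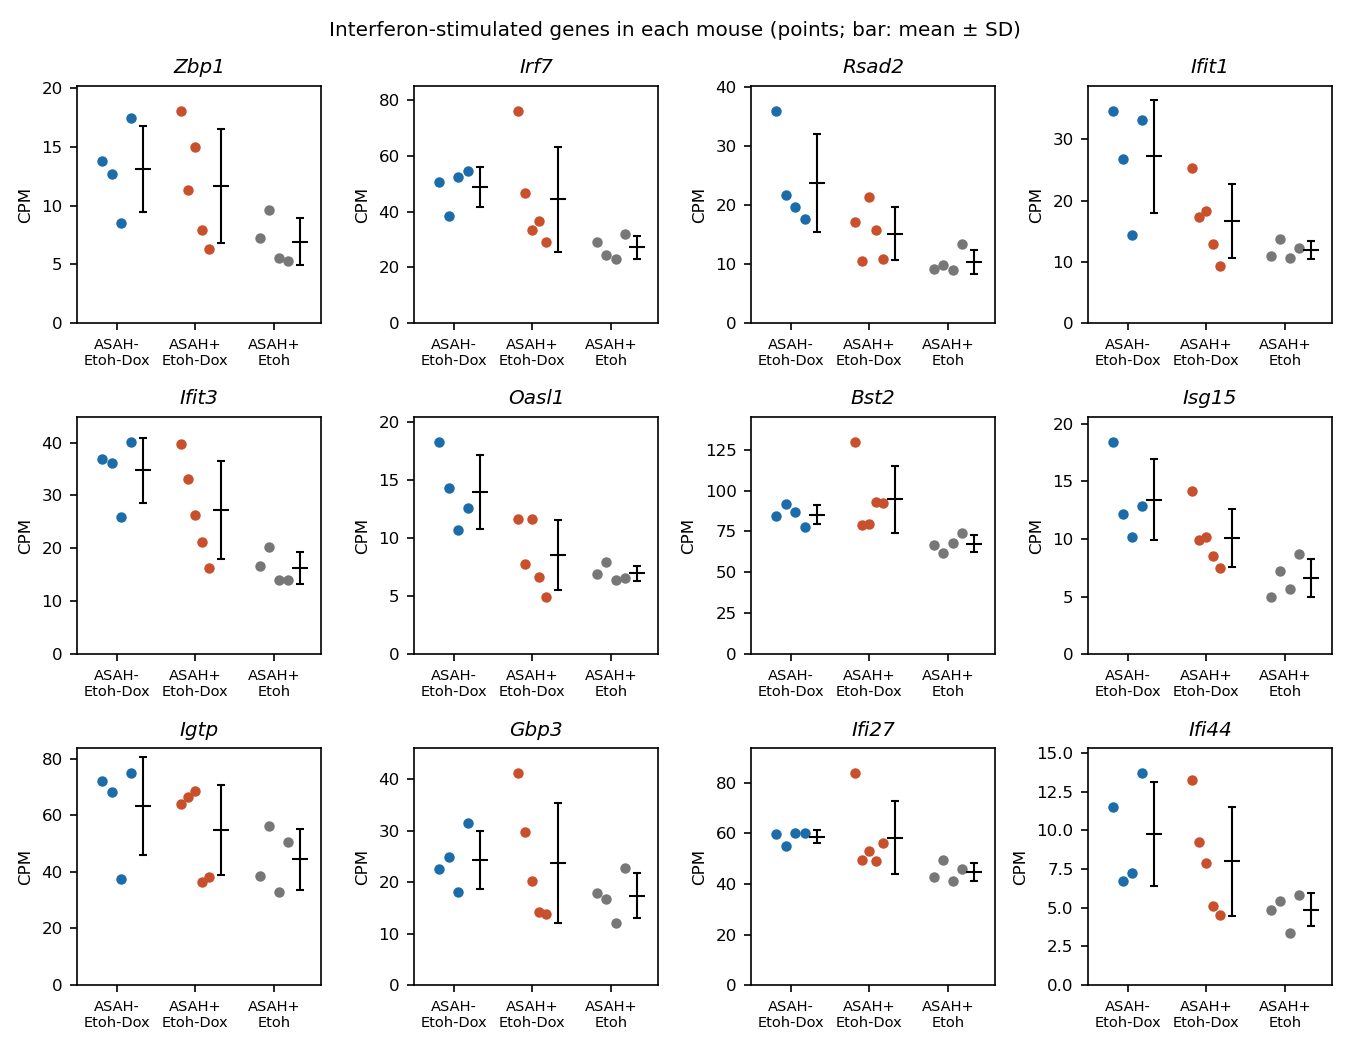
Level in CPM (y axis, from 0) of 12 interferon-stimulated genes in each mouse of 3 groups (x axis; points are mice, the bar beside them is the group mean with ± SD; n = 4, 5 and 4 from left to right). Bst2 is the only panel in which all ASAH+ Etoh-Dox mice, from 78.9 to 129 CPM, lie above all ASAH+ Etoh mice, from 61.5 to 73.8 CPM.

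The 34 genes varied between mice of the same group more than genes of like level. The within-group SD of log2 CPM was above the median of the 200 genes nearest in level for 34 of 34, with a median of 0.380 against 0.181, and it ranged from 0.176 for Stat2 to 0.518 for Ifi44, followed by 0.514 for Gbp3 and 0.507 for Zbp1. The highest and lowest levels of the 34 genes gathered in a few mice. ASAH- Etoh-Dox replicate 1 had the highest level of the 13 mice for 13 of the 34 genes, ASAH+ Etoh-Dox replicate 1 for 11 and ASAH- Etoh-Dox replicate 4 for 9. The lowest level was in ASAH+ Etoh-Dox replicate 5 for 11 genes and in ASAH+ Etoh replicate 3 for 11. The summed level of the 34 ranged within the ASAH+ Etoh-Dox group from 677 CPM in replicate 5 to 1199 CPM in replicate 1, beside 818 to 1150 CPM in ASAH- Etoh-Dox and 644 to 787 CPM in ASAH+ Etoh mice.

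**Figure D3:**
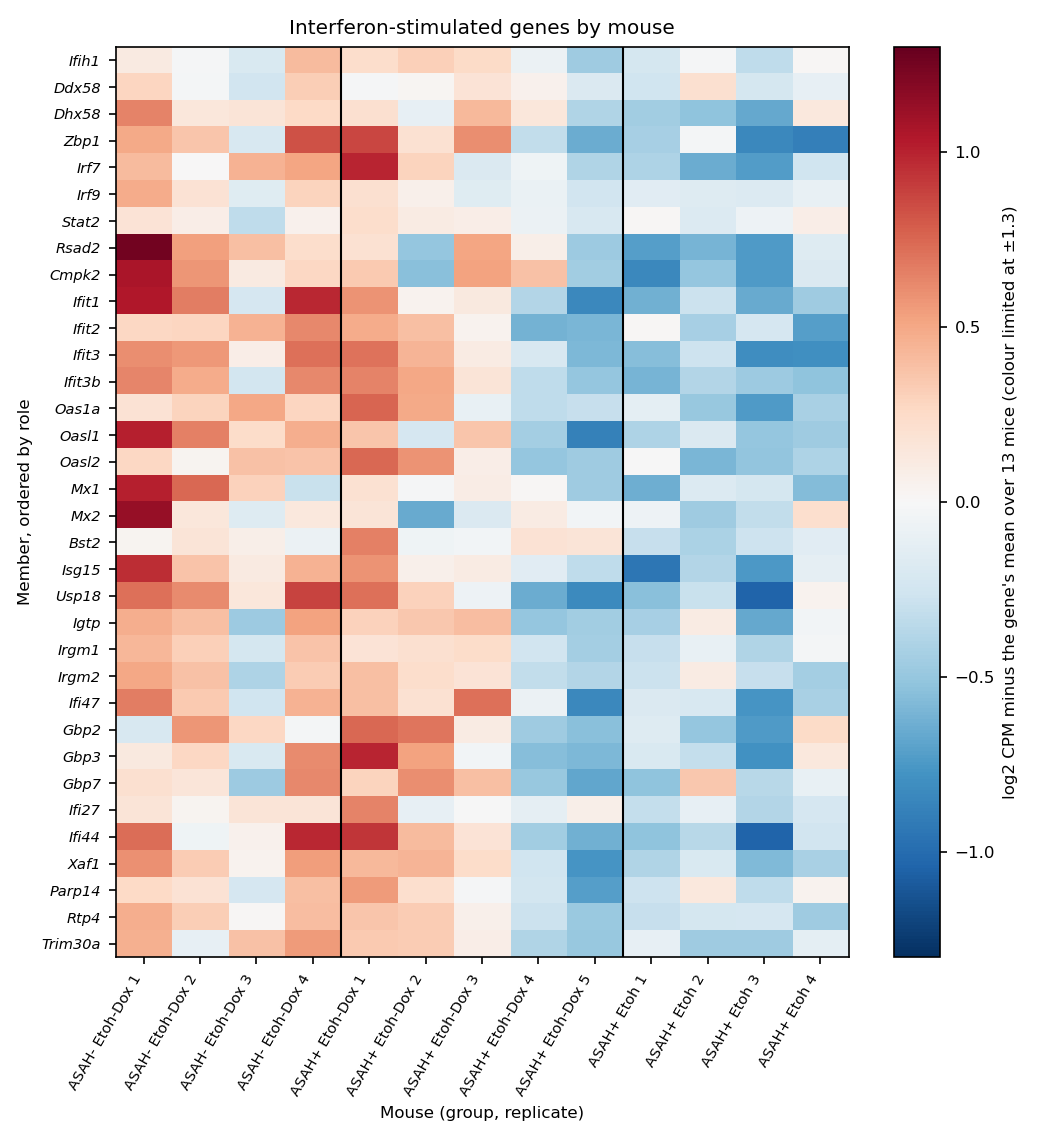
Heat map of 34 interferon-stimulated genes (y axis, ordered by role) in 13 mice (x axis, black lines between groups); colour is log2 CPM minus the mean of the gene over 13 mice, limited at ± 1.3. ASAH+ Etoh-Dox replicate 5 and ASAH+ Etoh replicate 3 are blue in most genes, and each has the lowest level of all mice for 11 of the 34.

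After group means were subtracted, the median Pearson correlation between 2 of the genes over 13 mice was 0.57 (561 pairs, quartiles 0.34 and 0.76), beside -0.00058 over all pairs of genes tested (quartiles -0.26 and 0.27). Of the 561 pairs, 25 were below 0. The closest pairs were Usp18 with Gbp3 (r = 0.965), Igtp with Irgm1 (0.965), Ifit3b with Rtp4 (0.954) and the divergent neighbours Rsad2 with Cmpk2 (0.948). Ifit1 had the highest median correlation with the other 33, 0.83, followed by Irgm1 at 0.78. At the other end, Mx2 (0.16), Bst2 (0.17), Mx1 (0.29), Rsad2 (0.30) and Cmpk2 (0.34) followed the rest least, and the lowest value of any pair was -0.35, for Ddx58 with Bst2. Outside the list, genes most alike to the mean of the 34 included Adar (r = 0.94), Herc6 (0.93), Parp12 (0.92), Rnf213 (0.90), Fam169b (0.90), Cpb2 (0.90), Trim30d (0.87), Parp9 (0.87) and Zfp426 (0.86), all over 13 mice. Of these, Adar, Herc6, Parp12, Rnf213 and Parp9 are in the list of further interferon-induced genes described below, and Fam169b, Cpb2, Trim30d and Zfp426 are not. Of the 4080 words of 31 bases in transcripts of Trim30a, 1 of the 34, 348 also occur in Trim30d. All genes were read from the same 13 libraries.

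The upstream parts of the pathway had small median differences where they could be measured. Of 21 interferon genes, 18 had no count in any mouse and 0 were abundant enough to be tested; Ifng had 14 reads in all 13 libraries together, Ifnz 2 and Ifnb1 1. Of 12 sensors and adaptors besides the 4 above, such as Mavs and Tbk1, all were tested, and of 8 tested receptors and kinases the most abundant was Jak1. None of these passed the test by edgeR, DESeq2 or limma-voom in any comparison, though DESeq2 on all 13 mice gave an adjusted p to only 1 gene of each list with against without Dox. At an unadjusted p under 0.05 by edgeR the sensors and adaptors had 1 lower gene between ASAH+ and ASAH- mice on Dox, 1 higher with against without Dox and 2 higher between the control groups, with median log2 fold changes of -0.01, 0.19 and 0.23. The receptors and kinases had 1 lower, 2 lower and 0 in the same order (medians -0.11, 0.06 and 0.13). With 1 mouse left out the first median of the sensors and adaptors reached 0.04 and the middle one of the receptors and kinases -0.0064. Without ASAH+ Etoh-Dox replicate 1 the first 2 medians of the sensors and adaptors were -0.09 and 0.10, and without ASAH- Etoh-Dox replicate 2 the last was 0.15. For the receptors and kinases the first and last were -0.055 and 0.060 without ASAH- Etoh-Dox replicate 4. The counts of 1 lower on Dox were 0 without ASAH- Etoh-Dox replicate 1 (sensors and adaptors) or replicate 3 (receptors and kinases).

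A further 74 interferon-induced genes, of which 72 were tested, had medians of the same sign as the 34 and smaller in size. Of the 72, 16 were above 0 between ASAH+ and ASAH- mice on Dox, 69 with against without Dox and 71 between the control groups, with median log2 fold changes of -0.07, 0.28 and 0.37. The first median lay between -0.16 and -0.01 with 1 mouse left out. The tally of 16 was 7, 26 and 35 without ASAH+ Etoh-Dox replicates 1, 4 and 5 in turn. By edgeR and limma-voom 0 passed the test. By edgeR the counts at an unadjusted p under 0.05 were 2 lower in the comparison on Dox, 18 higher and 1 lower with against without Dox, and 24 higher and 1 lower between the control groups. The count of 2 lower was 7 and 4 without ASAH+ Etoh-Dox replicates 1 and 2, and 1 without either replicate 4 or replicate 5. DESeq2 fitted on all 13 mice called 0, 1 (Ifitm2, lower) and 3 (Gbp6, Gbp10 and Tgtp1, higher) in that order, but with against without Dox it gave an adjusted p to 12 of the 74 only. Of all genes with such a value that fit called 4.94% with against without Dox and 1.73% between the control groups. Fitted on the 2 groups compared it called 0, 4 and 8, all higher. Over all genes with an adjusted p these fits called 11 of 19040, 114 of 13584 and 168 of 10699 in the same order. Gbp10 differed by 1.40 ± 0.36 (SE, log2) with against without Dox and by 1.29 ± 0.37 between the control groups, and Gbp6 by 0.86 ± 0.24 with against without Dox. Adar, the RNA-editing enzyme that masks self RNA from the sensors, had a log2 fold change of -0.27 ± 0.10 (SE) between ASAH+ and ASAH- mice on Dox and of 0.37 ± 0.11 between the control groups. Not among the 74 were Cgas, the DNA sensor, of the sensors and adaptors above, and Ifnar2, a chain of the type I receptor. These 2 were lower by -0.65 ± 0.30 and -0.20 ± 0.08 (SE, log2 fold change) in ASAH+ than in ASAH- mice on Dox. Neither passed the test. Ube2l6, which passes ISG15 to its targets, was higher by 0.40 ± 0.11 with against without Dox, and Ifi27l2a by 1.13 ± 0.29 between the control groups.

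Markers of Kupffer cells, the resident macrophages of the liver, had medians of the same sign as the interferon-stimulated genes in the 3 comparisons. All 10 listed markers were tested, none was at 0, and Cd5l was the most abundant. All 10 were lower in ASAH+ than in ASAH- mice on Dox (median log2 fold change -0.27), all 10 higher with than without Dox (0.42) and all 10 higher in ASAH- Etoh-Dox than in ASAH+ Etoh mice (0.63), with 0, 0 and 8 at an unadjusted p under 0.05 by edgeR. The first of these differences rested on ASAH- Etoh-Dox replicate 3: without it 5 of the 10 were above 0, with a median of 0.02. Without that mouse the median between the control groups was 0.36 and the count of 8 was 1. That count was 4 without ASAH- Etoh-Dox replicate 4 and 2, 3 and 4 without ASAH+ Etoh replicates 2, 3 and 4. With against without Dox the count was 4 higher without ASAH- Etoh-Dox replicate 3, and 3 higher without either ASAH+ Etoh-Dox replicate 3 or replicate 5. The first count was 2 lower without ASAH+ Etoh-Dox replicate 2. The first median was -0.15 without either ASAH+ Etoh-Dox replicate 3 or replicate 5, and 9 of 10 were higher with Dox without either replicate 1 or replicate 2 of that group. None passed the test by edgeR, limma-voom or DESeq2 on all 13 mice, and C1qa, higher, did by DESeq2 on the 2 control groups; the fit on all 13 mice gave an adjusted p to 3 of the 10 with against without Dox. Their summed level was 504, 515, 1029 and 628 CPM in the ASAH- Etoh-Dox mice, 709, 713, 376, 587 and 383 CPM in the ASAH+ Etoh-Dox mice, and 470, 376, 427 and 451 CPM in the ASAH+ Etoh mice. Mouse by mouse the sums and the interferon-stimulated genes did not run in the same order throughout. ASAH+ Etoh-Dox replicates 1 and 2 had the highest sums of their group and its highest means, 4.57 and 4.27. Replicate 5 of that group was low on both, at 383 CPM and 3.62. ASAH- Etoh-Dox replicate 3 had the highest Kupffer sum of all and the lowest mean of the 34 genes in its group. ASAH+ Etoh-Dox replicate 3 had the lowest Kupffer sum of its group and a mean of 4.25. The part of Kupffer cell number in the differences was not tested.

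**Figure D4:**
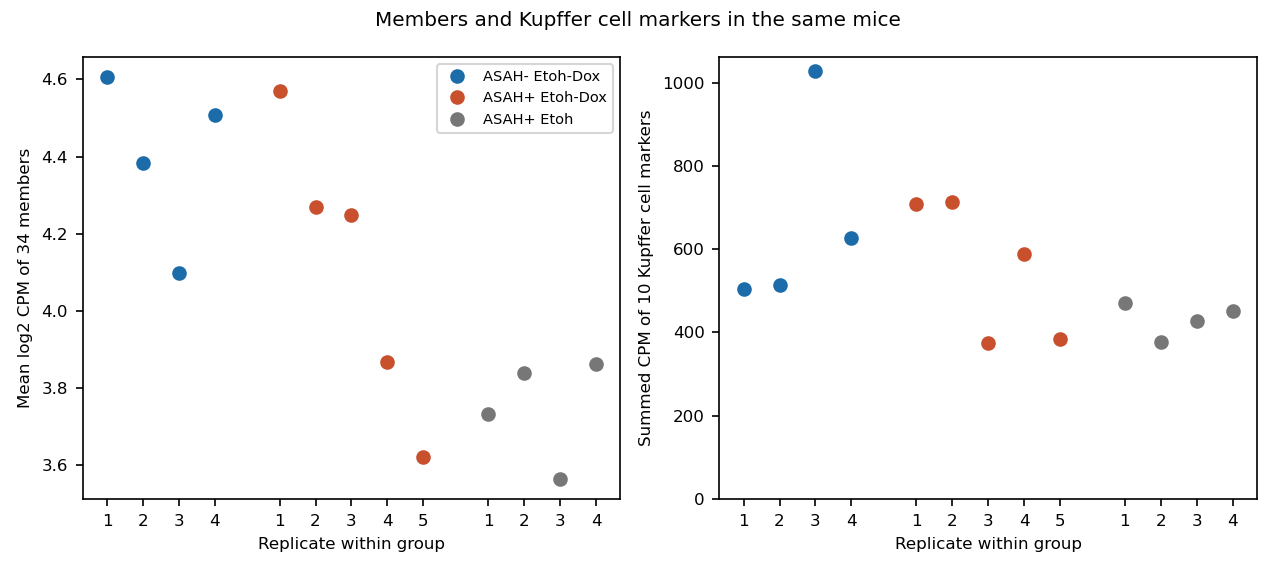
Left, mean log2 CPM of 34 interferon-stimulated genes (y axis) in each mouse (x axis, replicate within group); right, summed CPM of 10 Kupffer cell markers (y axis, from 0) in the same mice; points are mice and colours the 3 groups. ASAH- Etoh-Dox replicate 3 is the highest point on the right, at 1029 CPM, and the lowest of its group on the left, at 4.10. ASAH+ Etoh-Dox replicates 1 and 2 are the highest of their group in both panels.

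Other cell types were read in the same way, by edgeR, with counts at an unadjusted p under 0.05. Over all 14317 genes tested, 409, 1044 and 1316 had such a p in the 3 comparisons in order, in either direction. Hepatocyte markers were present throughout, with Alb the most abundant, and their 5 tested genes had 1 lower, 2 lower and 1 higher in the 3 comparisons in order, with medians of -0.24, -0.06 and 0.13. B cell markers (5 tested, led by Ighm, sums of 1.84 to 11.3 CPM) had 0, 2 higher and 3 higher, with median log2 fold changes of 0.12, 0.96 and 0.92. T and NK cell markers (8 of 10 tested, led by Ccl5, sums of 3.35 to 10.2 CPM) had 0, 1 higher and 1 higher, with medians of 0.06, 0.70 and 0.46. Monocyte markers (6 tested, led by Lyz2) had 0, 1 higher and 0, with medians of -0.18, 0.16 and 0.40, and the first was 0.05 without ASAH- Etoh-Dox replicate 3. Plasmacytoid dendritic cells, a major source of type I interferon, were near the limit of detection, with 1 of 5 markers tested and sums of 0.974 to 6.53 CPM. Sinusoidal endothelial markers (6 tested, led by Fcgr2b) had 4 lower, 5 lower and 0, with medians of -0.40, -0.48 and -0.11. Without ASAH- Etoh-Dox replicate 3 the first count was 1 lower (median -0.25) and the last 2 lower (median -0.26). Stellate markers (5 tested, led by Dcn) had 1 lower, 0 and 1 higher, with medians of -0.21, 0.00237 and 0.27. Neutrophil (3 of 5 tested, led by Csf3r) and cholangiocyte markers (4 tested, led by Sox9) had 0 in each, with medians of -0.46, -0.20 and 0.26 and of -0.39, -0.06 and 0.30. With 1 mouse left out some of these medians changed sign, among them the middle ones of stellate and cholangiocyte markers. The first of the B cell markers reached -0.13 and of the T and NK cell markers -0.34. The last of the sinusoidal endothelial markers reached 0.02 and of the cholangiocyte markers -0.08, and the middle of the hepatocyte markers 0.01. Other medians moved but kept their sign. The first cholangiocyte median was -0.0038 without ASAH- Etoh-Dox replicate 1, and the first stellate median -0.06 without ASAH- Etoh-Dox replicate 3. The first and last neutrophil medians were -0.26 and 0.06 without ASAH- Etoh-Dox replicate 2. For T and NK cell markers the middle median was 0.38 without ASAH+ Etoh-Dox replicate 2. None of these markers passed the test by edgeR or limma-voom. Both DESeq2 fits called Cps1 lower with against without Dox and Apoa1 higher between the control groups. Fcgr2b and Clec4g were called lower with against without Dox by DESeq2 on the 2 groups only, and the fit on all 13 mice gave an adjusted p to 0 of the 6 sinusoidal endothelial markers there. Whether cell composition had a part in the levels of the interferon-stimulated genes was not tested.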

How the data were processed

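The authors quantified single-end reads of 13 liver libraries with salmon against GENCODE M19 transcripts (GRCm38.p6) and used tximport for gene sums. As deposited by the authors, the values are estimated counts per gene from salmon, rounded (100% whole) and not scaled. Identifiers were matched to GENCODE M21 names for 53355 of 53392 genes. The members and lists were chosen with earlier results of these data known. In edgeR 4.0.16 (R 4.3.3), genes were filtered by filterByExpr on the 3 groups (14317 kept), scaled by TMM and fitted with robust quasi-likelihood to 3 group means over 13 mice, with Benjamini-Hochberg adjustment over all genes tested and a threshold of 0.1. The p-values of this fit judged each difference between groups against the spread between mice, which was estimated over all 13 mice. Correlations used log2 CPM with a prior count of 2. Genes given in full were, in each comparison, the 3 with the smallest p, plus the 3 most abundant per kb and the 3 with the largest within-group SD; from pathway lists, the 3 with the smallest p. Genes named outside this rule were chosen after their values were seen. Alternatives were DESeq2 1.42.0, limma-voom (limma 3.58.1), DESeq2 size factors in edgeR, other filters, a prior of 0.5, replicate blocks, and leaving out each mouse. Leaving out each mouse for the medians of the other lists was chosen after seeing the data.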

Additional observations from a re-analysis of the deposited data

Results flagged for a closer look

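In each group the level of each of the 34 genes and their mean were checked for a mouse far from the rest, and 3 of 105 groups of values held 1; chance gives about 1 in 20. Igtp was at 37.5 CPM in ASAH- Etoh-Dox replicate 3, where the nearest mouse of the group was at 68.3 CPM. Ifi27 was at 54.9 CPM in ASAH- Etoh-Dox replicate 2, below the nearest mouse at 59.8 CPM, in a group whose other 3 mice lay close together. Ifi27 was at 83.8 CPM in ASAH+ Etoh-Dox replicate 1, above the nearest mouse at 56.3 CPM.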

How the results depend on the processing

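Of 828 values of the 12 genes given in full (3 comparisons under 23 settings), 792 kept their direction and their side of the threshold, 17 passed it (all by DESeq2) and 19 changed sign. Members called were 1 by DESeq2 on all 13 mice for ASAH+ with against without Dox, and 11 and 21 by DESeq2 on all 13 mice and on the 2 groups between the control groups; every edgeR and limma-voom setting gave 0. Members with an unadjusted p under 0.05 between ASAH+ and ASAH- mice on Dox numbered 2 by edgeR on the 2 groups and 1 to 13 with 1 mouse left out; with against without Dox they numbered 9 by limma-voom and 5 to 19 with 1 mouse left out. The median log2 fold change with 1 mouse left out stayed between -0.36 and -0.12, 0.25 and 0.50, and 0.57 and 0.73 in the 3 comparisons. The sign changes of the 12 genes given in full were all between ASAH+ and ASAH- mice on Dox. Of all 34, 1 to 10 were above 0 there with 1 mouse left out, 32 to 34 with against without Dox and 33 to 34 between the control groups. Ifi27 went to 0.000282 by edgeR on the 2 groups, 0.00597 with no filter, 0.000727 with Asah1 left out of the totals, and from -0.174 to 0.0479 with 1 mouse left out. With 1 mouse left out Gbp3 ranged from -0.317 to 0.129 and Zbp1 from -0.371 to 0.00963. The cause was not tested.

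With a block for the replicate number of the titles, members with an unadjusted p under 0.05 between ASAH+ and ASAH- mice on Dox numbered 2, 7 members were above 0, their median was -0.12 and Gbp3 was at 0.0955. The counts at that p were 18 with against without Dox and 26 between the control groups, with medians of 0.51 and 0.66 and 34 above 0 in each. Replicate numbers did not pair mice: the 12 pairs with the same number correlated from -0.265 to 0.190.

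Groups of 4 and 5 mice, with standard errors of 0.23 to 0.24 (medians of the 34 genes, log2), limit which differences can pass a test over 14317 genes. Reads shared between Ifit3 and Ifit3b or Oas1a and Oas1g limit the values of each alone.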
